A study of Mus musculus with 15 samples.

Results

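The 45 genes described here drive the cell cycle and copy DNA, and their RNA was measured in hearts of mice bred to lose MAT1 from heart muscle cells and in hearts of control littermates. The list was made by function: cyclins and their kinases, the Rb and E2F regulators, the proteins that license and run replication forks, enzymes of nucleotide supply, and proteins of mitosis. Each gene was read by the probe set that the platform annotation gave to that symbol alone, or by the brightest such probe set. In this way 42 of the 45 genes were measured, among 8251 genes on the array. No probe set was matched to Ccnb1 or Bub1b, and the 2 probe sets of Tyms are annotated to a second symbol as well and were left out. No measured value was used to choose the genes, but the list was made with earlier results of these data known.

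Knockout hearts, labelled CKO, carried αMHC-Cre+/0; MAT1F/F, and control hearts carried αMHC-Cre+/0; MAT1F/+. Both groups therefore expressed Cre from the α-myosin heavy chain promoter, which is active in heart muscle cells, while other cells of the heart kept the gene. Controls had 1 wild-type allele and 1 floxed allele. RNA was taken at 2 weeks of age (3 control and 4 knockout arrays) and at 4 weeks of age (3 control and 5 knockout arrays), and each array gave 1 intensity per probe set. Whether every replicate of a group is a different mouse is unstated. Each group held arrays of both sexes as inferred from their RNA, so its arrays do not all come from 1 mouse. The p-values measure the spread between arrays, which may be technical in part. Mnat1, which encodes MAT1, does not serve as a check of the labels here, because no source places its probes inside or outside the floxed segment.

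MAT1 holds together the CDK-activating kinase, in which Cdk7 and cyclin H phosphorylate the kinases Cdk1, Cdk2 and Cdk4, and the same complex acts in transcription as part of TFIIH. D cyclins with Cdk4 and cyclin E with Cdk2 phosphorylate Rb proteins, which releases E2F factors and switches on genes for DNA synthesis. Genes for mitosis are switched on later in the cycle, when Cdk1 acts with cyclins A and B. Mouse heart muscle cells largely leave the cell cycle soon after birth, while fibroblasts, vessel cells and blood cells of the heart can still divide.

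Most of the 42 genes were dim. Their mean intensities over the 15 arrays ran from 18.5 to 1693, with a median of 126 against 270.5 for all genes, and 16 were under 100. Only 7 were over 500. Intensities were analysed as log2(intensity + 16), a scale that understates the changes of dim genes, and every difference below is on this scale with its standard error. Over all probe sets the arrays fell into sets of 6 and 9, here called array sets, which the labels do not mention and which cross all 4 groups. Of each age, 1 control and 2 knockout arrays lay in set 1, and the rest lay in set 2. Members differed between the sets by a median of 0.39 in either direction, against 0.45 for all genes, and 7 members by more than 1. Each comparison is therefore given first without and then with the array set as a block. A gene is called where limma's adjusted p, over all 8251 genes, is under 0.05.

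At 4 weeks several mitosis genes were higher in knockout than in control hearts. In the fit without the block Aurkb, Birc5 and Kif11 rose, by 1.12, 1.15 and 0.85. These were 3 of the 42 members (7.14%) called higher, where 4.87% of all genes were called higher, so the share lay near that of the whole array. No member was called lower, against 3.18% of all genes. With the array set as a block, 12 members (28.6%) were called higher, against 17.1% of all genes, and none lower, against 9.08%. Of the 12, 3 were those called without the block, and the other 9 were Ccna2, Cdk1, Rb1, Pcna, Lig1, Tk1, Mki67, Cdc20 and Kif20a. In 9 members (21.4%) every knockout array lay above every control array, against 9.09% of all genes, and in no member did every one lie below (5.38%). The difference was above 0 in 34 members (81.0%), against 59.8% of all genes, and its median was 0.22 against 0.08. Quantile normalization or median scaling of the arrays brought the 3 calls without the block to 0, while 11 were called with quantile normalization and the block together. The shares of all genes called under these settings are not given here.

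**Figure D1:**
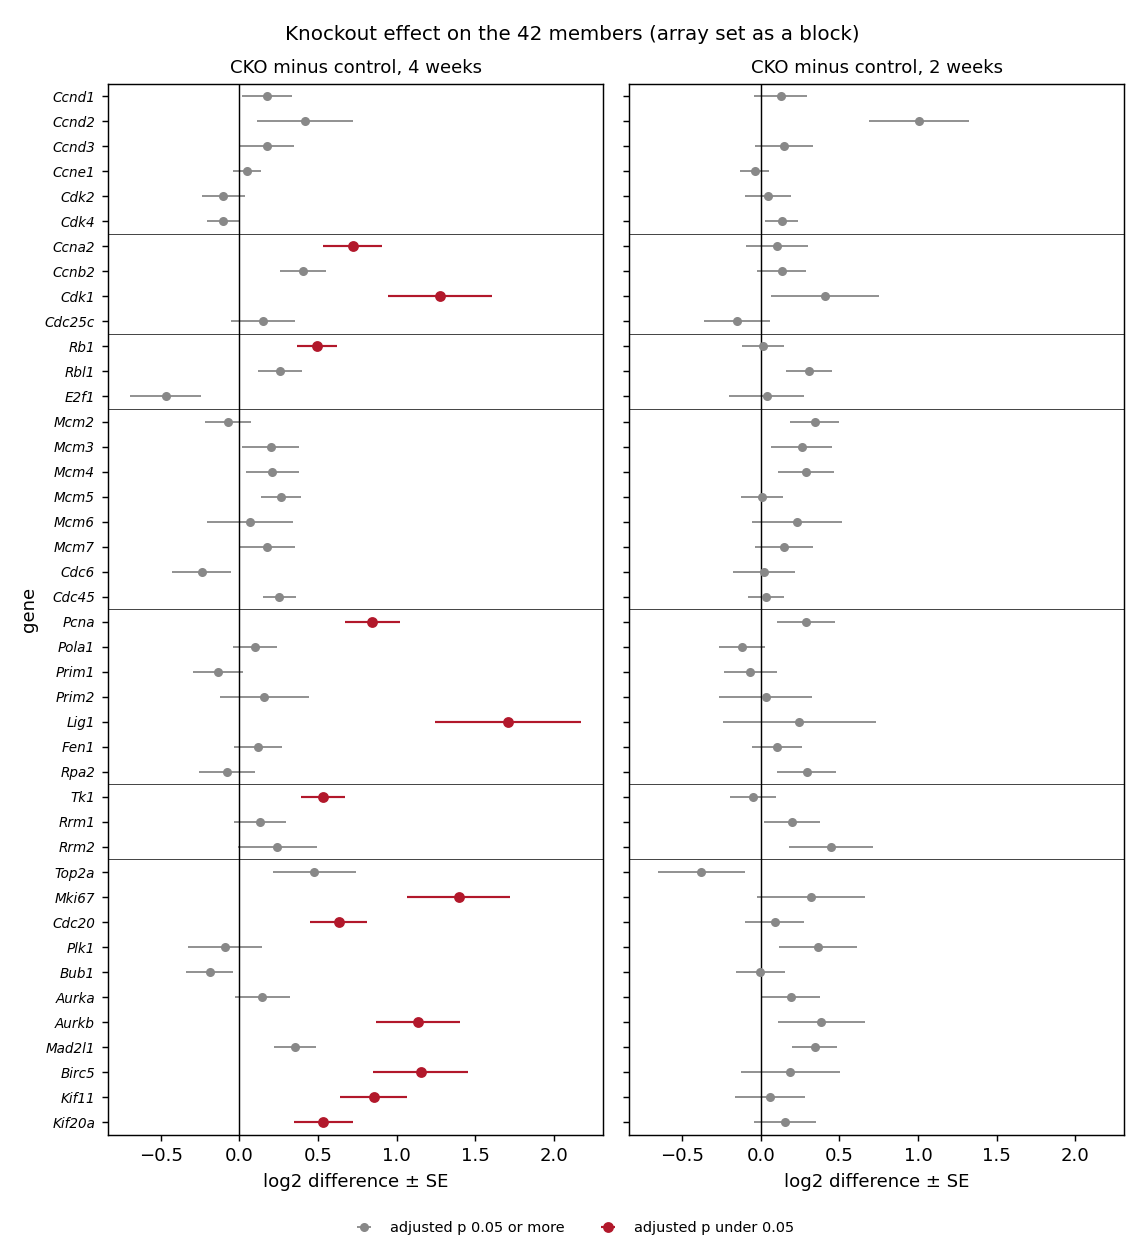
Log2 difference, knockout minus control, at 4 weeks (left) and 2 weeks (right) for the 42 measured genes, grouped by role, with standard errors, from the fit that blocks on the array set; red points are called. At 4 weeks the largest differences are those of Lig1 (1.71, but 0.74 without the control array at the lowest value), Mki67 (1.39) and Cdk1 (1.28), and no G1 or licensing gene is called.

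The genes of mitosis are the largest group. Of 11 measured, 3 were called higher without the block (27.3%, against 4.87% of all genes) and 6 with it (54.5%, against 17.1%), with a median of 0.53, and none was called lower. Mki67, which encodes the Ki-67 antigen that coats mitotic chromosomes and marks dividing cells, read 35.4, 48.4 and 65.7 in the 3 control arrays and 141, 119, 157, 122 and 204 in the 5 knockout arrays at 4 weeks. (Values are given in the order of the replicate numbers.) Every knockout array was brighter than every control array, with means of 49.8 ± 15.2 (SD, n = 3) in the controls and 149 ± 34.4 (SD, n = 5) in the knockouts. The difference was 1.32 ± 0.52 without the block (adjusted p = 0.157) and 1.39 ± 0.33, a 2.63-fold rise, with it (adjusted p = 0.00456). It was 1.50 within set 1 and 1.26 within set 2.

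Aurkb encodes the kinase of the chromosomal passenger complex, which corrects faulty spindle attachments, and Birc5 encodes survivin, another subunit of that complex. At 4 weeks Aurkb read 45.5, 38.6 and 37.2 in control hearts and 130.5, 108, 81.7, 89.8 and 131 in knockout hearts. Birc5 read 29.7, 20.6 and 5.59 in control hearts and 67.3, 59.1, 59.5, 59.1 and 42.9 in knockout hearts. In neither gene did the groups overlap, and the control arrays of Aurkb lay close together, at 40.5 ± 4.45 (SD, n = 3) against 108 ± 22.6 (SD, n = 5) in the knockouts. For Birc5 the means were 18.6 ± 12.2 (SD, n = 3) and 57.6 ± 8.92 (SD, n = 5). Aurkb rose by 1.12 ± 0.29 (adjusted p = 0.0285), and with the block by 1.14 ± 0.26 (adjusted p = 0.00433), with 1.13 and 1.09 within the sets. Birc5 rose by 1.15 ± 0.32 (adjusted p = 0.0399) and by 1.15 ± 0.30 with the block (adjusted p = 0.00937). Without the block, leaving out any 1 of 5 arrays ended the call of Aurkb (highest adjusted p = 0.114) and any 1 of 7 that of Birc5 (0.228). With the block no single array ended the call of Aurkb, while Birc5 was lost without control replicate 3 of 4 weeks (adjusted p = 0.0804).

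Both mitotic kinesins were higher as well. Kif11, the motor that pushes spindle poles apart, was among the dimmest members, at 12.9, 18.6 and 9.08 in control hearts and 36.03, 45.1, 32.98, 28.9 and 43.4 in knockout hearts. Its groups did not overlap, with means of 13.5 ± 4.82 (SD, n = 3) and 37.3 ± 6.86 (SD, n = 5). It rose by 0.85 ± 0.22 (adjusted p = 0.0279, up to 0.138 with 1 of 5 arrays left out) and by 0.85 ± 0.21 with the block (adjusted p = 0.00682), a call that no single array ended. Kif20a, a kinesin of the late spindle midzone, read 49.4, 40.9 and 36.1 in control hearts and 91.7, 55.9, 68.8, 67.2 and 57.6 in knockout hearts, again without overlap. Its difference was 0.53 ± 0.20 (adjusted p = 0.142) and with the block 0.53 ± 0.19 (adjusted p = 0.046), a call that leaving out any 1 of 10 arrays ended, with adjusted p up to 0.18.

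Cdc20 activates the ubiquitin ligase that starts anaphase. It read 125, 110.05 and 106 in control hearts and 158, 155, 193, 206 and 197 in knockout hearts at 4 weeks, with the lowest knockout array above the highest control array. The difference was 0.60 ± 0.25 (adjusted p = 0.191) and 0.63 ± 0.18 with the block (adjusted p = 0.0161), and it was not called without control replicate 2 (0.0861) or 3 (0.0958). The other 5 mitosis genes were not called. Their differences with the block were 0.48 ± 0.26 for Top2a, the topoisomerase that untangles chromosomes, and 0.35 ± 0.13 for the spindle checkpoint gene Mad2l1 (adjusted p = 0.0665). They were 0.15 for the spindle pole kinase gene Aurka, -0.09 for the mitotic kinase gene Plk1 and -0.19 for the checkpoint kinase gene Bub1.

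**Figure D2:**
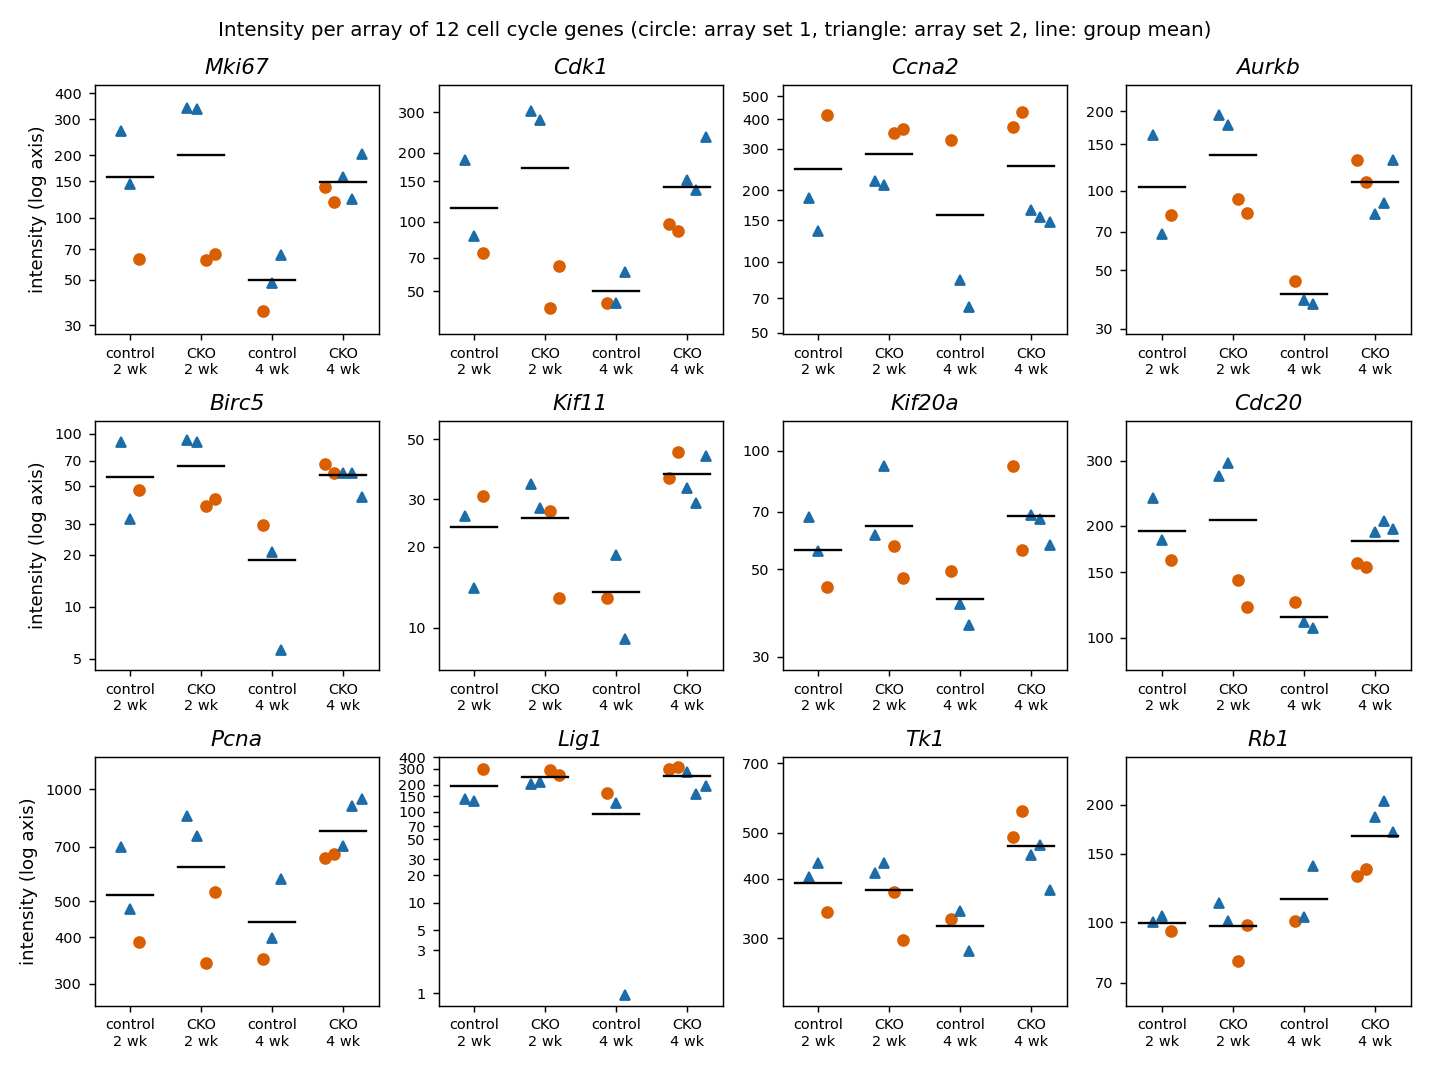
Deposited intensity (log axis) of 12 genes in each of the 15 arrays, by group; marker shapes give the array set and bars the group mean. At 4 weeks the knockout arrays of Mki67 (119 to 204) and Aurkb (81.7 to 131) lie above all 3 control arrays (up to 65.7 and 45.5), while those of Ccna2 overlap.

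Among the cyclins and kinase of S phase and mitosis, 2 of 4 were called higher with the block, Cdk1 and Ccna2 (50%, against 17.1% of all genes). None was called without it. Cdk1, the kinase that drives entry into mitosis and a substrate of the MAT1-containing kinase, read 44.4, 44.6 and 60.5 in control hearts and 97.9, 91.3, 152, 138 and 233 in knockout hearts at 4 weeks. All 5 knockout arrays were above the 3 control arrays. The difference was 1.21 ± 0.51 (adjusted p = 0.201) and 1.28 ± 0.33 with the block (adjusted p = 0.00841), with 0.87 within set 1 and 1.45 within set 2. Without control replicate 2 the blocked adjusted p was 0.0626.

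Ccna2, which encodes cyclin A2, the partner of Cdk2 and Cdk1, is a gene whose call depends on the block. It read 326, 83.4 and 64.3 in control hearts and 371, 429.7, 165, 154 and 147 in knockout hearts. The groups overlapped over all arrays, and set 1 was brighter in both groups, but within each set every knockout array was above every control array. Its difference went from 0.80 ± 0.50 (adjusted p = 0.466) to 0.72 ± 0.19 with the block (adjusted p = 0.00892), and control replicate 3 was needed for the call (0.0746 without it). Ccnb2, encoding cyclin B2, differed by 0.40 ± 0.15 (adjusted p = 0.0569) and Cdc25c, encoding a phosphatase that activates Cdk1, by 0.15 ± 0.20.

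At the replication fork, 2 of 7 genes were called higher with the block (28.6%, against 17.1% of all genes), and the group median was 0.12. Pcna, the sliding clamp that holds polymerases on DNA, read 349, 397 and 572 in control hearts and 655, 669, 703, 902 and 942 in knockout hearts at 4 weeks. The groups did not overlap. Its difference was 0.81 ± 0.28 (adjusted p = 0.106) and 0.85 ± 0.18, a 1.8-fold rise, with the block (adjusted p = 0.00193), and was alike within the sets, at 0.89 and 0.80. Lig1, the ligase that joins Okazaki fragments, read 163, 125 and 0.95 in control hearts and 298, 314, 273, 158 and 194 in knockout hearts, so that control replicate 3 lay at the lowest value the files hold. The groups overlapped through knockout replicate 4. The difference of 1.71 ± 0.46 with the block (adjusted p = 0.0116; 1.76 ± 0.58 and 0.0832 without it) became 0.74 (adjusted p = 0.0112, with the block) when that array was left out. The primase genes Prim1 (-0.13) and Prim2 (0.16), the polymerase gene Pola1 (0.10), the flap endonuclease gene Fen1 (0.12) and the single-strand binding gene Rpa2 (-0.08) were not called.

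For nucleotide supply, 1 of 3 measured genes was called higher with the block (33.3%, against 17.1% of all genes), a share that rests on 1 gene. Tk1, the cytosolic thymidine kinase of S phase, read 329, 343 and 282 in control hearts and 489, 555, 448, 472 and 378 in knockout hearts. No knockout array was as low as a control array. The difference was 0.53 ± 0.16 (adjusted p = 0.0612) and 0.53 ± 0.14 with the block (adjusted p = 0.00986), but 0.0638 without control replicate 3. A second, dimmer probe set of Tk1 went the other way, by -0.58 ± 0.16 (adjusted p = 0.0129 over all 12422 probe sets, with the block), and the mean of both probe sets differed by -0.02, so the direction of Tk1 depends on the probe set. The subunits of ribonucleotide reductase, Rrm1 (0.13 ± 0.17) and Rrm2 (0.24 ± 0.25), were not called.

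The Rb and E2F group held 1 call among 3 genes with the block (33.3% higher, against 17.1% of all genes), again a share of 1 gene. Rb1, the retinoblastoma protein that holds E2F in check, read 101, 103 and 139 in control hearts and 132, 137, 187, 205 and 170.02 in knockout hearts. Only knockout replicates 1 and 2 were as low as the highest control array, and all 5 were above the other 2. Its difference was 0.48 ± 0.17 (adjusted p = 0.12) and 0.49 ± 0.13 with the block (adjusted p = 0.0088; 0.0644 without control replicate 2). Rbl1, the related p107, differed by 0.26 ± 0.14 with the block, and E2f1, an activator of S-phase genes, by -0.47 ± 0.23 (adjusted p = 0.148), while its other probe set differed by 0.35 ± 0.23, so that its direction depends on the probe set. Within the sets E2f1 differed by 0.06 and -0.77, and it was the only member called lower within a set (adjusted p = 0.0296 within set 2).

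Neither the G1 genes nor the licensing genes held a call at 4 weeks in either fit, where 17.1% of all genes were higher with the block. Cdk4, the kinase of the D cyclins, shown for the 6 G1 genes as the one with the highest mean intensity, read 849, 1038 and 1179 in control hearts and 845, 838, 1042, 979.6 and 929.5 in knockout hearts. The knockout arrays lay within the range of the controls but for the 2 lowest, and the difference was -0.13 ± 0.19 (adjusted p = 0.855) and -0.10 ± 0.10 with the block (adjusted p = 0.507). With the block Ccnd1, Ccnd2 and Ccnd3, the D cyclins, differed by 0.18, 0.42 and 0.17, Ccne1, cyclin E1, by 0.05 and Cdk2, its kinase, by -0.10. The 8 licensing genes load and start the replicative helicase, and their differences ran from -0.24 (Cdc6) to 0.26 (Mcm5), with a median of 0.19. That median was -0.015 within set 1 and 0.196 within set 2. Cdc45, a part of the running helicase, shown by the same rule, read 2234, 1132 and 950.2 in control hearts and 2813, 2940.0, 1294, 1119 and 1123 in knockout hearts. The set 1 arrays, control replicate 1 and knockout replicates 1 and 2, were brighter than all other arrays of that age. The difference of Cdc45 was 0.25 ± 0.11 with the block (adjusted p = 0.0966) and 0.32 ± 0.41 without it. The helicase subunits Mcm2, Mcm3, Mcm4, Mcm6 and Mcm7 differed by -0.07, 0.20, 0.21, 0.07 and 0.18.

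**Figure D3:**
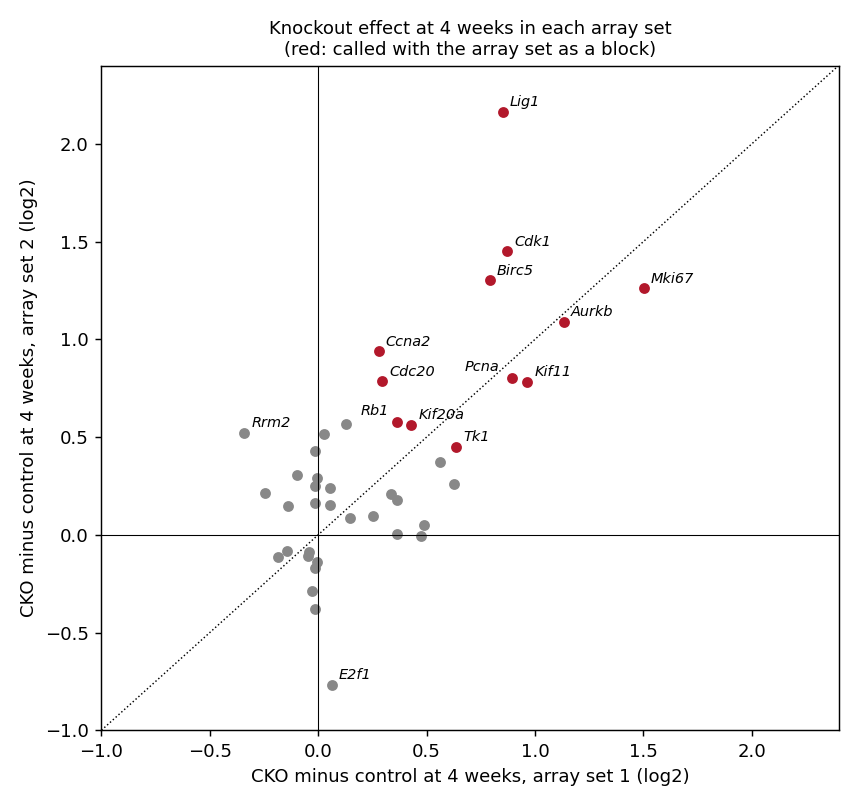
Knockout minus control difference (log2) at 4 weeks within array set 2 against that within set 1, for the 42 genes, which share no array between the axes; red points are the 12 called with the block, all above 0 on both axes. Mki67 (1.50 and 1.26) and Aurkb (1.13 and 1.09) lie near equality, and Lig1 (0.85 and 2.17) does not.

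The array sets gave 2 readings of the 4-week comparison that share no array. By inferred sex all 4-week arrays of set 1 were female. In set 2 the control arrays were male, knockout replicates 3 and 4 female and replicate 5 male, so genotype and sex largely went together there. All 12 members called with the block differed upward in both sets, a direction that the block fit uses and that is not independent of it. Over the 42 members, 24 were above 0 in both sets (41.3% of all genes were), 8 were below 0 in both (28.1%) and 10 had opposite signs. Pearson's r between the sets was 0.673 over the 42 members and 0.626 over all genes, as a description. Within set 1, whose 1 control array has no replicate and is assumed to vary like the other groups, 6 members were called higher (14.3%, against 7.59% of all genes) and none lower (3.66% of all genes): Ccnd1, Ccnb2, Lig1, Mki67, Aurkb and Birc5. In set 2, with 2 control and 3 knockout arrays, 9 were called higher (21.4%, against 12.5%): Ccna2, Cdk1, Rb1, Pcna, Lig1, Mki67, Cdc20, Aurkb and Birc5. In the same set 1 was called lower, E2f1 (2.38%, against 7.45%).

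Promoters of these genes were read for the motifs through which cell cycle genes are known to be controlled. The CHR, with the letters TTTGAA, binds the MuvB core of the DREAM complex and is typical of mitosis genes, the CCAAT box (CCAAT) binds NF-Y, and E2F sites were searched as TTTCCCGC, TTTCGCGC, TTTGCCGC or TTTGGCGC. Both strands of the 250 bases before the start were searched in the RefSeq promoters of build GRCm38.p6, in which 33 of the 42 genes had an entry. The CHR letters were found in 9 of the 33 (27.3%, against 16.3% of 27025 genes), the CCAAT box in 22 (66.7%, against 34.5%) and an E2F site in 8 (24.2%, against 1.91%). The 27025 are all genes with an entry, not the 8251 genes read on the array, and only the first entry of each gene was searched. Of the 12 genes called with the block, 8 had an entry. Of these 8, 4 held the CHR letters (Cdk1, Mki67, Cdc20 and Kif11), 5 a CCAAT box and 1 an E2F site (Cdk1). The last 150 bases before the start of those 4 promoters are shown 5′ to 3′ on the gene's strand, with motif letters in capitals, because they share the CHR and CCAAT letters. Of the 25 genes with an entry that were not called, 5 held the CHR letters (Ccnb2, Mcm2, Cdc45, Fen1 and Top2a), 17 a CCAAT box and 7 an E2F site. The promoters of the licensing genes Mcm2, with the CHR letters, and Mcm6, without them, are shown as examples of genes not called at 4 weeks. They lie at chr10:69352913-69353062 (- strand), chr7:135716380-135716529 (- strand), chr4:118437344-118437493 (- strand), chr19:37376232-37376381 (+ strand), chr6:88898781-88898930 (- strand) and chr1:128359706-128359855 (- strand).
Cdk1: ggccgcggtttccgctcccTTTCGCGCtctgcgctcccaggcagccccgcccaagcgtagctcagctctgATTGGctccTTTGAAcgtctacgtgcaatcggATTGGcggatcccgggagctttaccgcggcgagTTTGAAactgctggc
Mki67: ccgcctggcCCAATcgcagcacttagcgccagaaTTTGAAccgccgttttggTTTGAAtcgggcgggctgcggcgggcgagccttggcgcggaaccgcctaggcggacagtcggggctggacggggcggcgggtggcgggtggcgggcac
Cdc20: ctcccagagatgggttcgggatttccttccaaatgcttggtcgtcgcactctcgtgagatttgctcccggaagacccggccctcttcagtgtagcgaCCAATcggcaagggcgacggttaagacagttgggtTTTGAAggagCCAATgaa
Kif11: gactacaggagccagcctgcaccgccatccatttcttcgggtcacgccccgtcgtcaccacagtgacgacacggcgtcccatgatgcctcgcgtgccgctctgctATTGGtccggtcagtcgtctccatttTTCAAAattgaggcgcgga
Mcm2: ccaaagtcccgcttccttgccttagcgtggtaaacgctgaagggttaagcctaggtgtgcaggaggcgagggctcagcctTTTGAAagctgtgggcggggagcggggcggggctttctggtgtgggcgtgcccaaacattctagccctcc
Mcm6: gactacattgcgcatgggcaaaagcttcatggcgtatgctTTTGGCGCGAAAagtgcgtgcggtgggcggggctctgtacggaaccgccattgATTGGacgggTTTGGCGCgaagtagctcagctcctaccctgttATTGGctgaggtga

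In Cdk1 the CHR letters begin 71 and 15 bases before the start, with CCAAT boxes on the other strand (ATTGG) at 80 and 48 and an E2F site at 131. Cdc20 has the CHR letters at 18 between CCAAT boxes at 53 and 8, and Kif11 has them on the other strand (TTCAAA) at 19, with a CCAAT box at 45. The Mki67 promoter has CHR letters at 116 and 98 and a CCAAT box at 141. Mcm2 has CHR letters at 70. Mcm6 has no CHR letters in this window but CCAAT boxes at 57 and 14 and E2F sites at 110, 106 and 47, of which the first pair overlap on opposite strands. These are matches of letters, and binding was not measured in these hearts.

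Other genes of the same pathways were taken from a wider list of 119, of which 96 were measured. At 4 weeks 3 of the 96 were called higher (3.12%, against 4.87% of all genes) and 1 lower (1.04%, against 3.18%) without the block. With it 22 were higher (22.9%, against 17.1%) and 2 lower (2.08%, against 9.08%). The CDK inhibitor gene Cdkn1a, which encodes p21, read 403, 130.3 and 296 in control hearts and 1729, 1681, 2850.1, 2651 and 2089 in knockout hearts. Every knockout array was far brighter than the brightest control array. Its difference of 3.02 ± 0.28 with the block (adjusted p = 1.13e-06) was larger than that of any of the 42 members. Cdkn1a was the only one of 7 CDK inhibitor genes called (14.3%, against 17.1% of all genes). Gmnn, encoding geminin, which blocks relicensing of origins, differed by -1.59 ± 0.22 in the same fit (adjusted p = 5.95e-05; -1.58 ± 0.25 and 0.00111 without the block).

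Of 31 wider mitosis genes, 2 were called higher without the block, Anln and Cdc16 (6.45%, against 4.87% of all genes). With the block 11 rose (35.5%, against 17.1%) and none fell, among them Anln, which encodes the cytokinesis protein anillin (1.11 ± 0.25; without the block 1.08 ± 0.31, adjusted p = 0.0439), the condensin gene Smc4 (0.80 ± 0.17) and the anaphase complex genes Cdc16 (0.52 ± 0.11) and Anapc5 (0.52 ± 0.08). Of 28 further replication genes, 2 rose with the block, Orc4 and Nasp (7.14%, against 17.1%), and Gmnn fell (3.57%, against 9.08%). Tfdp1, the partner of E2F factors, rose by 0.68 ± 0.13 and was 1 of 2 called among 8 E2F and DREAM genes, with Myc (25%, against 17.1%). Cdc34, a ubiquitin-conjugating enzyme gene, fell by 0.59.

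Markers of cell types were read in the same comparison. In it 17.1% of all genes were called higher and 9.08% lower with the block, and 4.87% higher without it. The heart muscle marker Myh6 had a mean intensity of 10399 over all arrays, so the marker of the labelled tissue was bright. Of 12 fibroblast markers, 12 were higher in knockout hearts at 4 weeks with the block and 10 without it, and their summed intensity ran from 12215 to 13594 in control and from 25808 to 33972 in knockout arrays. At 2 weeks the sums overlapped, from 17305 to 24342 in control and from 17730.1 to 29320.3 in knockout arrays. Of 9 cardiomyocyte markers, 6 were lower with the block, with sums of 68411 to 73097 in control and 56213 to 61301 in knockout arrays. Of 7 smooth muscle markers 3 were higher, of 10 endothelial markers 2 were higher and 1 lower, and none of 12 macrophage markers was called. Of 14 lymphocyte markers 1 was higher (Cd79b), and of 7 erythroid markers 1 was higher (Hba-a1) and 1 lower (Klf1). The endothelial, lymphocyte and erythroid counts lay near or below the shares of all genes. Every marker had a mean above the lowest value of the files, but few probe sets reach that value, so this does not show detection. Means of the lymphocyte markers ran from 21.4 (Cd3g) to 822.8 (Dntt). Inferred from Xist and Uty, 4 of 5 knockout arrays and 1 of 3 control arrays at 4 weeks came from females, against 1 of 4 and 1 of 3 at 2 weeks. With the array set and the inferred sex both as blocks, 11 of the 12 members were still called, all but Kif20a (adjusted p = 0.131). The share of all genes called in that fit is not given here, so the count does not set the members apart from all genes. The part of cell composition in the members' differences was not tested, and in these bulk samples more cells of a type and more RNA per cell cannot be told apart.

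Where a member had further probe sets, these often did not move with the one used. At 4 weeks, with the block, 17 other probe sets of 15 members had the same sign in 7 cases and the opposite sign in 10. Those of the called genes differed by 0.09 ± 0.25 for Mki67, -0.30 ± 0.25 for Lig1, 0.31 ± 0.17 for Rb1 and 0.15 ± 0.23 for Kif20a. Taking the mean of all probe sets of each gene left 9 of the 12 calls in number. The other 27 members have 1 probe set each.

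**Figure D4:**
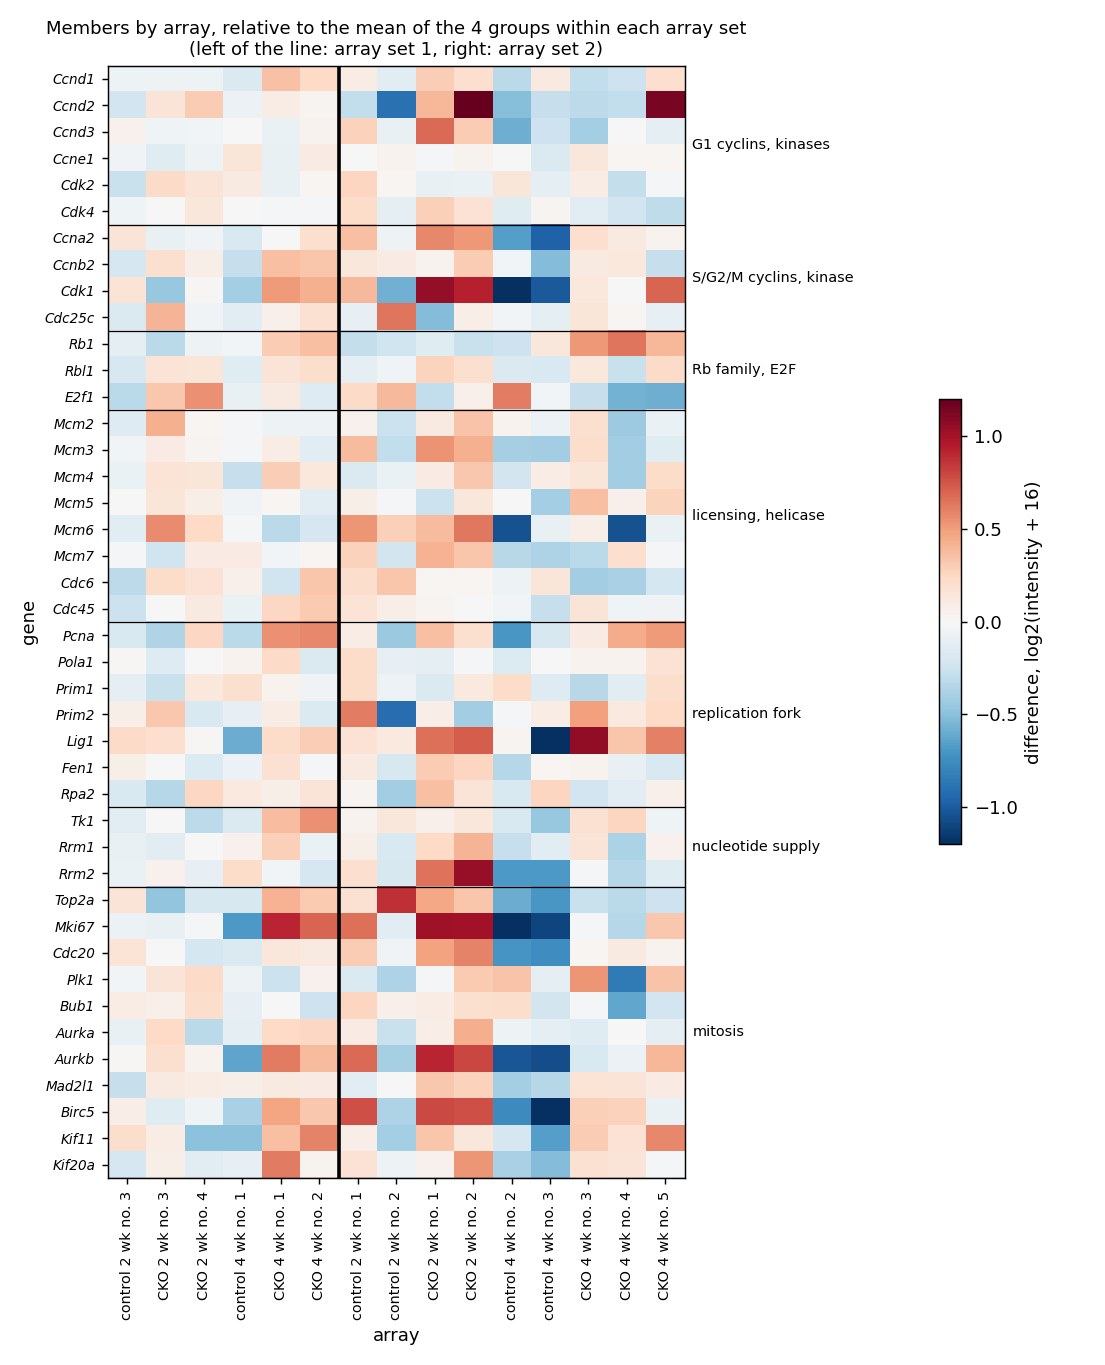
Log2 intensity of the 42 genes in the 15 arrays, as the difference from the mean of the 4 groups within each array set, with colours clipped at 1.2 in both directions. Genes are ordered by role and arrays by group, with set 1 left of the line and set 2 right of it, and the 4-week control columns are the lowest of their set for Mki67 and Aurkb.

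At 2 weeks no member was called in either fit, against 0.0121% of all genes called higher and 0.0% lower without the block and 0.0606% and 0.0121% with it. Counted at unadjusted p values under 0.05, limma gave 2 members without the block (Ccnd2 and Mad2l1; 4.76%, against 0.739% of all genes) and 3 with it (the same and Mcm2; 7.14%, against 3.47%), all higher in knockout hearts. The difference was above 0 in 36 members (85.7%, against 60.6% of all genes), but its median of 0.15 stood beside 0.05 within set 1 and 0.33 within set 2. The groups did not overlap in 4 members, all higher in knockout hearts (9.52%, against 1.71%): Ccnd2, Mad2l1, Mcm3 and Mcm4, which are named here after their values were seen.

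Ccnd2, cyclin D2, read 90.2, 53.9 and 118 in control hearts and 156, 288, 159 and 178 in knockout hearts at 2 weeks. All 4 knockout arrays were above the 3 controls, and the difference was 1.04 ± 0.35 (adjusted p = 1) and 1.01 ± 0.32 with the block (adjusted p = 0.678). Mad2l1, whose product delays anaphase until chromosomes are attached, read 72.1, 81.2 and 70.5 in control hearts and 106, 102, 96.97 and 95.9 in knockout hearts, a difference of 0.36 ± 0.16 (adjusted p = 1). The helicase subunit gene Mcm3 gave 209.5, 126 and 210.01 in the controls and 236, 218, 232 and 219.6 in the knockouts, and differed by 0.26 ± 0.19 with the block (adjusted p = 0.986). Its partner Mcm4 gave 35.9, 39.1 and 41.2 in the controls and 46.4, 57.1, 51.9 and 51.1 in the knockouts, and differed by 0.29 ± 0.18 (adjusted p = 0.972). All 8 licensing genes were above 0 with the block, with a median of 0.19, and none was called.

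The genes called at 4 weeks were not called at 2 weeks. Mki67 read 261, 145 and 62.97 in control hearts and 338, 337, 62.04 and 66.4 in knockout hearts. Cdk1 read 186, 86.8 and 73.4 in control hearts and 304, 277, 42.2 and 64.5 in knockout hearts. In both genes the 2 brightest knockout arrays were those of set 2 and the others fell within or below the control range, so that the differences with the block were 0.32 ± 0.34 and 0.41 ± 0.35. Within set 1 they were 0.02 and -0.38, and within set 2 0.74 and 1.09. Aurkb read 162, 68.6 and 80.6 in control hearts and 194, 178, 92.7 and 82.1 in knockout hearts. Birc5 gave 90.05, 31.99 and 47.5 in the controls and 91.6, 90.1, 38.2 and 41.8 in the knockouts. Cdc20 read 238, 183 and 161 in control hearts and 272, 295, 143 and 121 in knockout hearts. These 3 genes overlapped between the groups, and their differences with the block were 0.39 ± 0.28, 0.19 ± 0.32 and 0.09 ± 0.19.

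The other genes called at 4 weeks also overlapped between the groups at 2 weeks. Kif11 gave 26.1, 14.04 and 30.9 in the controls and 34.2, 27.7, 27.2 and 12.9 in the knockouts. For Kif20a the values were 67.8, 55.5 and 44.97 in controls and 60.98, 91.5, 57.3 and 47.6 in knockouts. Both kinesins had 1 or more knockout arrays below the brightest control, and their differences with the block were 0.06 ± 0.22 and 0.15 ± 0.20. Pcna gave 697, 478 and 388 in the controls and 849, 750.4, 339.9 and 529 in the knockouts. For Lig1 the values were 140.1, 134 and 301 in controls and 202, 212, 293 and 256 in knockouts. The brightest array was a knockout for Pcna and a control for Lig1, and the differences with the block were 0.29 ± 0.19 and 0.24 ± 0.49.

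Tk1 gave 403, 432 and 341 in the controls at 2 weeks and 411, 432, 375 and 298 in the knockouts. Ccna2 gave 186, 135 and 416 in the controls and 219, 210.4, 351 and 363 in the knockouts. In both genes the groups overlapped, and with the block they differed by -0.05 ± 0.15 and 0.10 ± 0.20. For Rb1 the values were 100.05, 104 and 94.9 in controls and 112, 101, 79.5 and 98.5 in knockouts. For Cdk4 they were 1341, 1056 and 819.8 in controls and 1406, 1297, 854 and 937 in knockouts. For Cdc45 they were 1302, 1222 and 1985 in controls and 1188, 1151, 2384 and 2560.3 in knockouts. None of these 3 genes separated the groups, and their differences with the block were 0.01, 0.13 and 0.03.

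From 2 to 4 weeks the members of control hearts lay lower, though none was called. Without the block limma called 0 members, against 0.109% of all genes lower and 0.267% higher, and with it 0 again, against 1.66% and 1.91%. With the block, 3 were called lower without control replicate 1 of 4 weeks and 1 without control replicate 2 of 2 weeks. At an unadjusted p under 0.05, 3 members were lower without the block (7.14%, against 3.02%) and 8 with it (19.0%, against 8.96%). The difference was above 0 in 9 members (21.4%, against 44.9% of all genes), and the median was -0.15, with -0.01 within set 1 and -0.25 within set 2. By role the medians were -0.52 for the cyclins and kinase of S phase and mitosis, -0.41 for mitosis, -0.29 for nucleotide supply, -0.15 for licensing, -0.08 for the fork, -0.03 for G1 and 0.06 for the Rb and E2F genes. Within set 1 the median of nucleotide supply was 0.15 and that of licensing 0.11.

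Mki67 had a mean of 156 ± 99.6 (SD, n = 3) at 2 weeks and 49.8 ± 15.2 (SD, n = 3) at 4 weeks in control hearts, a difference of -1.23 ± 0.37 with the block (adjusted p = 0.0785). Its lowest value at 2 weeks lay below its highest at 4 weeks, and the difference was -0.62 within set 1 and -1.54 within set 2 (adjusted p = 0.0129). Aurkb had means of 104 ± 50.9 (SD, n = 3) and 40.5 ± 4.45 (SD, n = 3), and all 3 arrays at 4 weeks lay below all 3 at 2 weeks (-1.01 ± 0.29, adjusted p = 0.0751). Birc5 (-1.05 ± 0.34, adjusted p = 0.106), Cdk1 (-0.91 ± 0.37, 0.212) and Cdc20 (-0.68 ± 0.20, 0.0785) differed in the same direction. Within set 2, with 2 arrays at each age, Ccna2, Top2a, Mki67 and Cdc20 fell, which are 9.52% of the members, against 1.81% of all genes. Top2a read 66.4, 118 and 18.1 at 2 weeks and 10.7, 32.05 and 28.8 at 4 weeks over all control arrays, and its difference with the block was -0.90 ± 0.29 (adjusted p = 0.11). In control hearts 7 of 12 fibroblast markers were lower at 4 than at 2 weeks with the block, against 1.66% of all genes. Without the block 2 were lower, Col1a1 and Lum, against 0.109% of all genes. With the block 1 of 10 endothelial markers (Cdh5) and 1 of 7 smooth muscle markers (Acta2) were lower, and no marker of the other lists was called. The part of cell composition was not tested here either.

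**Figure D5:**
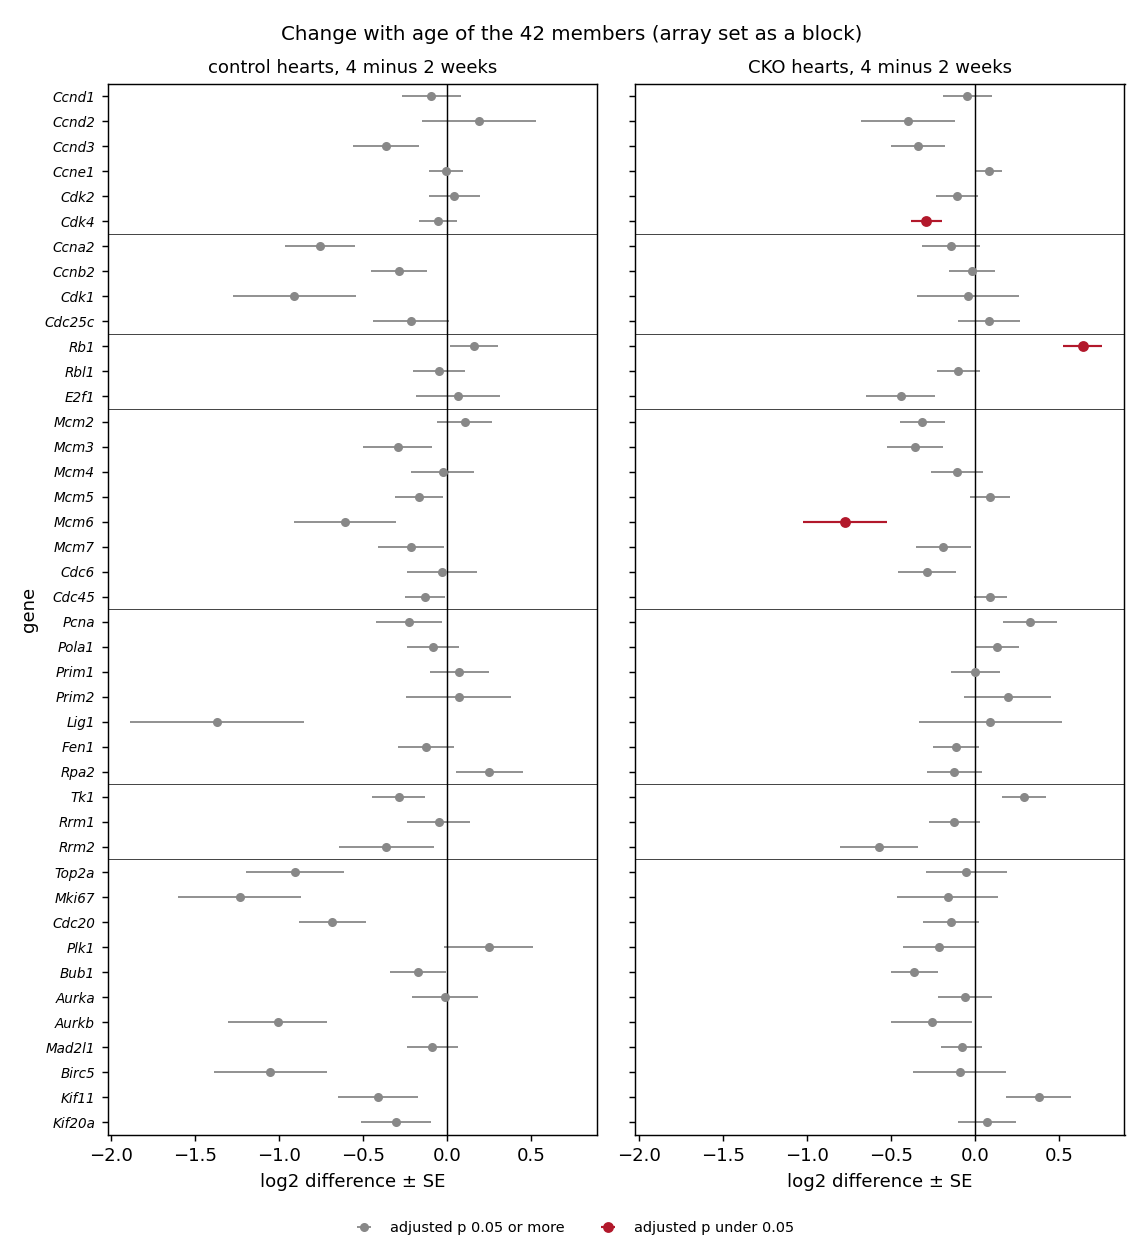
Log2 difference, 4 minus 2 weeks, in control and in knockout hearts for the 42 genes by role, with standard errors of the fit with the array set as a block. For Mki67 and Aurkb the control difference is -1.23 and -1.01, and in knockout hearts it is -0.16 and -0.26. The knockout value of Mki67 stands for opposite differences, 0.86 within array set 1 and -1.02 within array set 2. No member was called for a change of the knockout difference between the ages, over all arrays without or with the block.

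In knockout hearts the members did not move together with age. Rb1 was the 1 member called without the block (2.38%, against 2.65% of all genes higher and 1.71% lower). Its mean was 97.8 ± 13.5 (SD, n = 4) at 2 weeks and 166 ± 31.4 (SD, n = 5) at 4 weeks, and all 5 arrays at 4 weeks were above all 4 at 2 weeks. Rb1 rose by 0.67 ± 0.16 (adjusted p = 0.0254, up to 0.0917 with 1 of 6 arrays left out) and by 0.64 ± 0.12 with the block (adjusted p = 0.00113), with 0.52 and 0.73 within the sets. In control hearts it differed by 0.16 ± 0.14 with the block.

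With the block 3 members were called with age in knockout hearts, Rb1 higher and 2 lower, against 10.3% of all genes higher and 7.2% lower. Cdk4 had means of 1124 ± 269 (SD, n = 4) and 927 ± 87.3 (SD, n = 5) and fell by 0.29 (adjusted p = 0.0439), with -0.09 and -0.45 within the sets. The helicase subunit gene Mcm6 read 29.4, 38.2, 111 and 84.8 at 2 weeks and 52.3, 58.1, 20.7, 0.95 and 16.9 at 4 weeks, with 1 array at the lowest value of the files, and fell by 0.77 (adjusted p = 0.0439). Leaving out any 1 of 9 arrays ended that of Cdk4 (adjusted p up to 0.162) and any 1 of 8 that of Mcm6 (up to 0.131). For Mki67 the difference with age was 0.86 within set 1 (adjusted p = 0.0201) and -1.02 within set 2 (adjusted p = 0.0262), opposite directions that no single value describes. Over the 42 members the median was -0.10, with 0.11 within set 1 and -0.35 within set 2.

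Whether the knockout difference itself changed between the ages was tested as an interaction. limma called 0 members without the block, against 0.388% of all genes higher and 0.376% lower, and 0 with it, against 4.39% and 3.05%, though 1 was called higher with the block without control replicate 1 or without knockout replicate 5 of 4 weeks. Counted at unadjusted p values under 0.05, limma gave 2 members higher without the block (Tk1 and Kif11; 4.76%, against 4.4%) and 9 with it (21.4%, against 12.2%). Kif11 differed by 0.79 ± 0.32 between the ages (adjusted p = 0.469; 0.142 with the block). The calls at 4 weeks and their lack at 2 weeks are therefore not shown to differ for any of the 42 genes with all 15 arrays. The median of the interaction was 0.08 over the members and 0.03 over all genes. Of the 96 genes of the wider list, Cdkn1a (1.72) and Ran (0.45) were called higher with the block (2.08%, against 4.39% of all genes). Gmnn (-1.45) was called lower (1.04%, against 3.05%), and without the block none was called.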

How the data were processed

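Per the labels' protocols, RNA of mouse hearts was isolated with Trizol and columns and biotin-labelled. Each deposited value is a linear intensity of 1 probe set on 1 array; the authors' scaling: not given in the sources used here. Array medians ran from 173.7 to 216.8, a ratio of 1.248 (limit set for rescaling 1.25), so the deposited intensities were kept and taken to log2 after adding 16. Of 12422 probe sets, 10833 had 1 symbol, 396 several and 1193 none, and 10817 had an entry in RefSeq (GRCm38.p6). Each of 8251 genes was read by its brightest single-symbol probe set, with no filter on dim genes. limma 3.58.1 (R 4.3.3) fitted 4 group means over 15 arrays with an intensity trend, two-sided tests and Benjamini-Hochberg adjustment over 8251 genes, and was tested on simulated data. The number of arrays limits precision.

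The array sets were found from correlations (at least 0.937 within, at most 0.924 between sets), and blocking on them and on sex was added after seeing the data. At most 0.0322% of values were equal in any pair of arrays. The members and lists were chosen with earlier results of these data known. Array values were given for up to 12 members with the smallest adjusted p among those called in any comparison and for the brightest member of a role group without one. Ccnd2, Mad2l1, Mcm3, Mcm4, Top2a, E2f1 and Mcm6 were singled out after their values were seen.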

Additional observations from a re-analysis of the deposited data

Results flagged for a closer look

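In 84 sets of values (42 genes in the 2 groups of 4 or 5 arrays), 2 held an array far from the others, where chance gives about 1 in 20. Ccnd1, cyclin D1, was highest in knockout replicate 5 at 4 weeks, at an intensity of 717, and its gap to the next array was 0.792 of the group's range (n = 5). Mcm4, a helicase subunit gene, was lowest in knockout replicate 4 at 4 weeks, at 27.7, with a gap of 0.74 of the range (n = 5). Neither gene was called at 4 weeks in the fits over all arrays, without or with the block.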

How the results depend on the processing

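Most members are dim (29 of 42 lie in the dimmest 40% of genes), arrays are few, and what separates the array sets is not known, so counts of calls depend on how the sets and the scaling are treated. The 3 calls at 4 weeks became 12 blocking on the array set, 6 within set 1, 10 within set 2, 11 with the block and quantile normalization, 11 with the block and inferred sex, 1 with a pseudocount of 64, 1 without the dimmest 40% of genes (of 13 members left), and 0 with quantile normalization or median scaling. With the block they were 4 without the dim genes, 9 with the mean of all probe sets, 12 with a pseudocount of 1 and 11 with one of 64. The share of all genes called higher changed too: 4.87% without the block, 17.1% with it and 12.5% within set 2. For most other settings in this paragraph that share is not given. The counts therefore cannot tell a change of the members from one of all genes. Leaving out 1 array gave 0 to 3 calls and medians of 0.17 to 0.42 without the block, and 7 to 13 calls with it (7 without control replicate 3). The 2-week median was 0.33 within set 2. In control hearts the age median was -0.0055 within set 1, with 4 calls within set 2, 4 with the block and inferred sex, and 0 to 3 with the block and 1 array left out. In knockout hearts the 1 age call became 3 with the block, 4 within set 2, 3 with the block and quantile normalization, 5 with the block and inferred sex, 0 to 1 with 1 array left out, and 0 with quantile normalization, median scaling, the replicate block or no dim genes, with medians of 0.11 within set 1 and -0.35 within set 2. The difference of Tk1 at 4 weeks became -0.0076 without and -0.022 with the block when all its probe sets were averaged. The cause of these changes was not tested, beyond the fewer arrays or genes that some settings hold.

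Correlations of arrays with the same replicate number, after group means were removed, ran from -0.75 to 0.85 over 18 pairs. The 7 pairs above 0.1 were those within 1 array set, and all pairs across the sets were negative. These values follow the array sets, so they cannot show whether arrays of the same number are paired. A replicate block left 3 calls at 4 weeks and 0 at 2 weeks and in control hearts with age.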
